A study of Mus musculus with 8 samples.

Results

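Pitx1, Tbx4, Tbx5, Tbx15, Tbx18, Tbx20, Prrx1, Shox2, Meis1 and Meis2 are transcription factor genes that mark position in the mouse limb, trunk and heart. They were taken as a named list, chosen with earlier results of these data known, and found on the arrays by gene symbol, without the Hox genes. The 10 genes had 21 of the 41174 probes, and 9 of them, all but Tbx4, were among the 22919 targets that were bright enough to be tested (one probe per gene). RNA came from mouse embryonic fibroblasts (MEFs), a mixed culture of embryonic connective tissue cells, and was hybridised to 8 one-colour arrays in 4 groups of 2 arrays each. Keap1-/- TR MEFs were profiled as tumours formed in nude (nu/nu) mice after injection of 3000000 cells (Keap1-/- allograft) and as cells in a culture dish (Keap1-/- dish). WT TR MEFs were profiled as tumours after injection of 10000000 cells into nude mice (WT allograft) and in a dish (WT dish). All 4 groups carry TR, which the labels do not spell out, and tumours were collected at volumes between 100 and 150 mm3.

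Each genotype was represented by 1 line, so the genotype cannot be told apart from the history of its line. Between allografts the lines also differed in the number of cells injected, which cannot be told apart from genotype either. This holds as well where the difference between allograft and dish is set against itself between the lines. The labels do not say whether the 2 arrays of a group come from separate cultures or animals, so p-values measure only the spread between these arrays. Nude mice lack mature T cells but keep other host cells, which grow into a tumour and contribute RNA. In such bulk RNA, fewer cells of a type and less RNA per cell cannot be told apart.

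T-box factors (Tbx) and homeobox factors of the paired type (Pitx1, Prrx1, Shox2) are switched on in restricted fields of embryonic mesenchyme and instruct what those fields become. MEIS proteins are homeobox factors of the TALE class that bind DNA together with PBX and HOX partners, and in the limb bud they mark its proximal part. Fibroblasts in culture are known to keep much of the position code of the site from which they came. Whether these genes record where the cells of either line arose was not tested. KEAP1 marks the transcription factor NRF2 for degradation, and cells without it accumulate NRF2.

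Promoter sequences are shown for Prrx1, Shox2 and Tbx20, on whose differences between lines or between growth conditions the results below turn. Each is the stretch of 250 bases before the annotated start, 5′ to 3′ on the gene's strand, from RefSeq with coordinates of GRCm38.p6. Capitals mark a match to TAATTA, the letters searched for here as a paired homeobox core. The regions are chr1:163313651-163313900 (minus strand) for Prrx1, chr3:66981772-66982021 (minus strand) for Shox2 and chr9:24774304-24774553 (minus strand) for Tbx20.
Prrx1: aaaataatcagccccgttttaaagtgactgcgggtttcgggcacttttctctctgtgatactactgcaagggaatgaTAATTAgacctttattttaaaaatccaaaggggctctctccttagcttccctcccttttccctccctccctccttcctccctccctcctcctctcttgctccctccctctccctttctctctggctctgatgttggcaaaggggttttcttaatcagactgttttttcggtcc
Shox2: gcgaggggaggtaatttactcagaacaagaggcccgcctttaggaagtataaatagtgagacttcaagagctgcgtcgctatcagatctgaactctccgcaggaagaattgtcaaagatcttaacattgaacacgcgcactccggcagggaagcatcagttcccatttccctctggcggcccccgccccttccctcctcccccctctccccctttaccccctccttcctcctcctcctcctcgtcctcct
Tbx20: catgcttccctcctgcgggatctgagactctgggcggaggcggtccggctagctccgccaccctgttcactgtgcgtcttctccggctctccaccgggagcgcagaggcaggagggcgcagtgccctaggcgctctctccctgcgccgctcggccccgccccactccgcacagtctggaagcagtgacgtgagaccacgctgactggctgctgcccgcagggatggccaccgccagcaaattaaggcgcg

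The table held promoters for 7 of the 10 genes (Tbx4, Tbx18, Tbx20, Prrx1, Shox2, Meis1 and Meis2). They were searched on both strands for TAATTA, for AGGTGT (T-box factors), for TGACAG (MEIS) and for TGACNNNGC (the core of the antioxidant response element, bound by NRF2), of which TGACAG and TGACNNNGC can overlap. The sole match among the 7 was the TAATTA of Prrx1, which lay 173 to 168 bases before the start and, being a palindrome, reads the same on both strands. Of 32851 promoters of this length in the table, 4.84% held TAATTA, 11.8% AGGTGT, 15.9% TGACAG and 10.2% TGACNNNGC. The promoter of Tbx20 had a GC content of 68.8%, that of Shox2 55.6% and that of Prrx1 47.6%, against a median of 52.4% over all promoters. A match is a description of the letters, and no binding was measured.

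Levels are given as log2 of the processed signal minus log2 of the 75th percentile of the same array, so that 0 is the 75th percentile of an array and a step of 1 is a 2-fold step in signal. This percentile was between 1084 and 1546 signal units, the scanner software called 60.6% to 74.7% of the probes of an array well above background, and no spot was saturated. Levels of different probes cannot be set against each other, because each probe binds with its own strength. Differences were tested with limma across all 22919 targets and a difference was called where the p adjusted by Benjamini and Hochberg's method was under 0.05. Keap1 itself was lower in Keap1-/- cells, by a log2 difference of -1.69 ± 0.17 (SE, adjusted p = 0.000722) in allografts and -0.86 ± 0.17 (adjusted p = 0.0197) in dishes. It was well above background on all arrays, and whether its probe lies in the deleted stretch is not stated in the sources used here. Nfe2l2, which encodes NRF2, was 0.60 ± 0.10 higher in Keap1-/- allografts than in WT allografts (adjusted p = 0.00529) and differed by 0.07 ± 0.10 in dishes (adjusted p = 0.743).

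Between dishes the largest differences between the lines were in Pitx1, Tbx5 and Tbx20, and between allografts in Tbx20, Tbx5 and Prrx1. Pitx1 and Tbx5, factors of the hindlimb and the forelimb, were higher in Keap1-/- cells in dish and in allograft, and Tbx20, a factor of the heart, was lower in both. Tbx15 and Tbx18, factors of the trunk, were higher in Keap1-/- cells in both conditions. Prrx1 was higher in Keap1-/- allografts than in WT allografts and was not called between dishes, and Shox2 was higher in Keap1-/- dishes and slightly lower in Keap1-/- allografts than in their WT counterparts. These patterns are visible in the plot of all 10 genes by array.

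**Figure D1:**
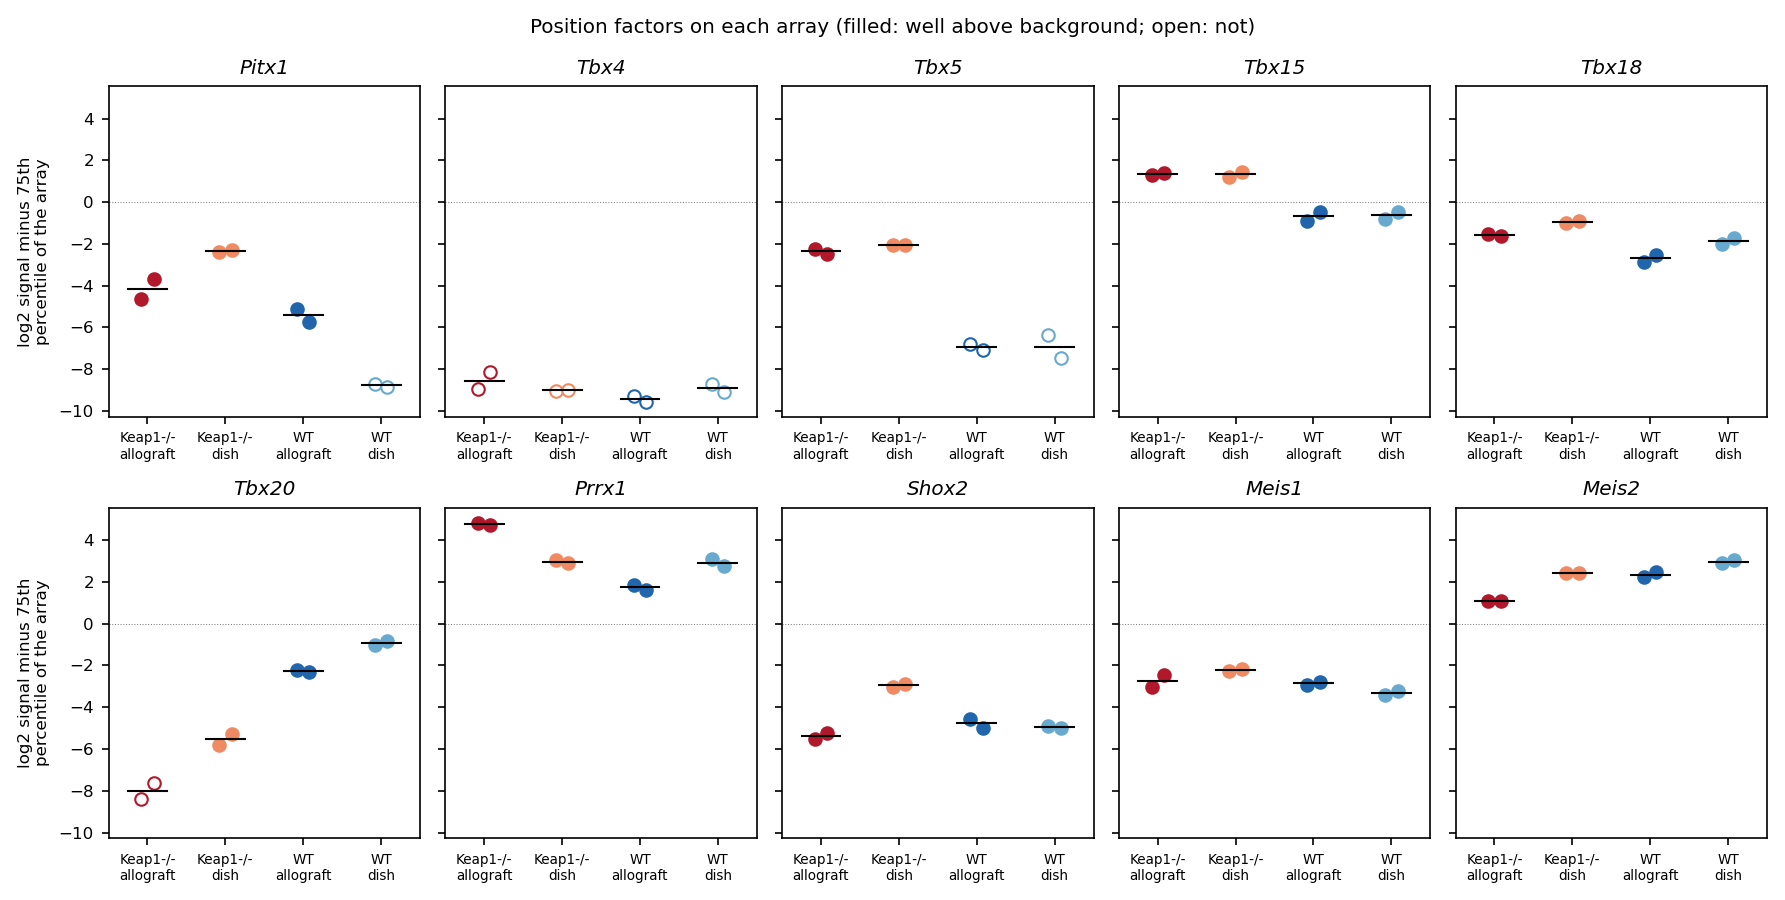
Scaled level (log2 signal over that array's 75th percentile) of each position factor on each of the 8 arrays, in Keap1-/- allograft, Keap1-/- dish, WT allograft and WT dish. Filled points were well above background, open points were not, and the short line is the mean of the 2 arrays. Pitx1, Tbx5 and Tbx20 have groups below background and Tbx4 has no filled point.

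Between dish cultures, 8 of the 9 tested genes were called, 6 higher and 2 lower in Keap1-/- cells, with a median log2 difference of 1.10. Over all targets tested, 21.1% were called (11.4% higher and 9.78% lower) and the median was -0.05. These 4843 calls over all targets were 2372 to 3206 without any one of the 4 dish arrays, 2830 with normexp background correction and 2620 with unscaled signals. With a block for the replicate number, which is also the slide, the calls over all targets were 6517. Pitx1, Tbx5 and Tbx20 passed the filter on dim signals through the groups in which they are high. The genes were also chosen with earlier results of these data known. Counts of called members, here and in the comparisons below, are therefore not evidence about the set, also where only bright genes are counted. Of the 6 genes well above background on all 8 arrays (Tbx15, Tbx18, Prrx1, Shox2, Meis1 and Meis2), 5 were called, against 27.1% of 17487 targets of that kind. The arrays of the 2 groups did not overlap for 8 of the 9 genes, which also held for 58.7% of all targets. Between allografts, 8 of the 9 were called, 5 higher and 3 lower in Keap1-/- tumours, with a median of 1.13. The shares over all targets were 41.8% called (20.5% higher and 21.3% lower), with a median of 0.00. Of the 6 genes bright on all arrays, 5 were called, against 45% of such targets, and groups did not overlap for 8 of the 9 genes, against 70.2% of all targets.

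Pitx1, the homeobox factor that sets hindlimb identity, was measured with 1 probe. In Keap1-/- dishes its level was -2.38 and -2.31, against -8.69 and -8.84 in WT dishes, where it was not well above background on either array. Keap1-/- dishes thus stood far above WT dishes with no overlap: the fitted log2 difference was 6.41 ± 0.34 (adjusted p = 0.000156), and the signal was at least 19.2-fold higher. A fold written as "at least" sets the bright group against the lowest signal that counted as above background on each dim array, or the dim probe's own signal where that was higher. The level in Keap1-/- allografts was -4.62 and -3.69, against -5.09 and -5.74 in WT allografts. The allograft groups lay next to each other without overlapping, with a log2 difference of 1.26 ± 0.34 (adjusted p = 0.03), which is 2.40-fold. That difference was 0.47 between the arrays numbered 1 and 2.05 between those numbered 2. Skeletal muscle markers summed to 22.6 on the first Keap1-/- allograft array and 4.24 on the second, and their part in this difference was not tested. Leaving out any one of 6 arrays, all but the first array of either allograft group, ended this call (adjusted p 0.0509 to 0.137), and the difference was 0.80 without the second Keap1-/- allograft array.

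Tbx4, a T-box factor of the hindlimb and lung mesenchyme that acts downstream of Pitx1 in the hindlimb, stayed below the background call on all arrays with both of its 2 probes. Its brighter probe read -8.97 and -8.14 in Keap1-/- allografts, -9.04 and -8.98 in Keap1-/- dishes, -9.28 and -9.56 in WT allografts, and -8.73 with -9.08 in WT dishes. All of these values have only an upper bound, so Tbx4 was not tested and no order can be read from them. A signal of Pitx1 was thus measured in Keap1-/- cells and in WT allografts without a measurable signal of Tbx4.

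Tbx5, the T-box factor of the forelimb and heart, was well above background on all 4 Keap1-/- arrays and on no WT array. It read -2.22 and -2.48 in Keap1-/- allografts, against -6.79 and -7.10 in WT allografts. In Keap1-/- dishes it read -2.04 on both arrays, against -6.36 and -7.48 in WT dishes. All Keap1-/- arrays stood above all WT arrays, at least 24.2-fold in allografts (log2 difference 4.60 ± 0.36, adjusted p = 0.000242) and at least 23.2-fold in dishes (4.87 ± 0.36, adjusted p = 0.000463). The second probe of Tbx5, also below the background call on all WT arrays, was at least 2.91-fold higher in Keap1-/- allografts (adjusted p = 0.000682) and at least 3.04-fold higher in Keap1-/- dishes (adjusted p = 0.00103, over all 30355 tested probes).

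Tbx20, a T-box factor needed in heart muscle and valves, went the other way. In Keap1-/- allografts it read -8.37 and -7.63, not well above background, against -2.22 and -2.32 in WT allografts. In Keap1-/- dishes it read -5.80 and -5.29, against -1.03 and -0.82 in WT dishes. Every WT array stood above every Keap1-/- array. The signal was at least 21.4-fold lower in Keap1-/- allografts (log2 difference -5.73 ± 0.28, adjusted p = 4.93e-05) and 24.6-fold lower in Keap1-/- dishes (-4.62 ± 0.28, adjusted p = 0.000237). The second probe, not well above background on any Keap1-/- array, was also lower, at least 1.27-fold in allografts and at least 4.17-fold in dishes (adjusted p = 8.76e-05 and 3.8e-05 over all 30355 tested probes). Tbx20 and Tbx5 were the least alike of all pairs of tested members: the root mean square difference of their log2 levels over the 8 arrays, after centring each gene on its mean, was 5.05.

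Tbx15, a T-box factor of trunk dermis and skeleton that sets the dorsal and ventral border of coat colour in mice, was measured by 3 probes. The brightest read 1.31 and 1.39 in Keap1-/- allografts, against -0.88 and -0.48 in WT allografts. In the Keap1-/- dishes it read 1.21 and 1.46, against -0.81 and -0.46 in the WT dishes. Keap1-/- arrays lay above all WT arrays by nearly the same distance in both growth conditions: 4.08-fold in allografts (2.03 ± 0.19, adjusted p = 5e-04) and 3.92-fold in dishes (1.97 ± 0.19, adjusted p = 0.00135). The other probes gave log2 differences of 1.92 and 1.84 in allografts and 1.98 and 1.78 in dishes.

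Tbx18, expressed in the epicardium, in the front part of each somite and in ureter mesenchyme, was measured by 2 probes. The brighter read -1.51 and -1.61 in Keap1-/- allografts, against -2.86 and -2.52 in WT allografts. Keap1-/- dishes read -0.98 and -0.88, against -2.0 and -1.73 in WT dishes. Within each growth condition the Keap1-/- arrays were the higher ones, 2.18-fold in allografts (1.13 ± 0.15, adjusted p = 0.00227) and 1.91-fold in dishes (0.93 ± 0.15, adjusted p = 0.00965). The dish call ended without the second Keap1-/- dish array (adjusted p = 0.0666) or without the first WT dish array (0.0523).

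Prrx1, a paired-type homeobox factor of limb bud and facial mesenchyme, was measured by 4 probes. In Keap1-/- allografts the brightest read 4.84 and 4.73, against 1.86 and 1.62 in WT allografts, a log2 difference of 3.05 ± 0.15 (8.27-fold, adjusted p = 4.93e-05). In Keap1-/- dishes it read 3.03 and 2.88, against 3.08 and 2.76 in WT dishes, a difference of 0.04 ± 0.15 (adjusted p = 0.911). The dish arrays overlapped and the allograft arrays were far apart, and the other 3 probes gave 2.93 to 2.98 in allografts and 0.07 to 0.22 in dishes.

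Shox2, a homeobox factor of the proximal limb and of the sinoatrial node of the heart, was measured with 1 probe. In Keap1-/- allografts it read -5.54 and -5.23, against -4.57 and -4.98 in WT allografts, and in Keap1-/- dishes -3.04 and -2.87, against -4.91 and -4.99 in WT dishes. The Keap1-/- dish arrays stood above the other 6 arrays. In dishes Shox2 was 3.99-fold higher in Keap1-/- cells (2.00 ± 0.18, adjusted p = 0.000981). In allografts it was 1.53-fold lower in Keap1-/- tumours (-0.61 ± 0.18, adjusted p = 0.0369), with -0.97 between the first arrays and -0.25 between the second. This allograft call ended when any one of 6 arrays was left out, all but the second array of either allograft group (adjusted p 0.0594 to 0.159), with normexp background correction (-0.17, adjusted p = 0.411), and with no filter on dim probes (adjusted p = 0.06).

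Meis1 and Meis2, the TALE cofactors, differed between dishes in opposite directions. In Keap1-/- allografts the brighter Meis1 probe read -3.05 and -2.44, against -2.91 and -2.80 in WT allografts, which overlap (0.11 ± 0.21, adjusted p = 0.715). In Keap1-/- dishes it read -2.26 and -2.16, against -3.40 and -3.21 in WT dishes, 2.14-fold higher (1.10 ± 0.21, adjusted p = 0.0162). Meis2 read 1.08 and 1.10 in Keap1-/- allografts, against 2.24 and 2.46 in WT allografts, 2.39-fold lower (-1.26 ± 0.11, adjusted p = 0.00033). It read 2.42 and 2.45 in Keap1-/- dishes, against 2.92 and 3.03 in WT dishes, 1.45-fold lower (-0.54 ± 0.11, adjusted p = 0.018). Meis2 thus lay lower in Keap1-/- cells in both conditions without overlap. Both dish calls depended on single arrays: leaving out any one of the 4 dish arrays ended that of Meis1 (adjusted p 0.052 to 0.09) and that of Meis2 (0.0541 to 0.107), and Meis2 also lost it with quantile normalization (0.0559) and with unscaled signals (0.324).

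**Figure D2:**
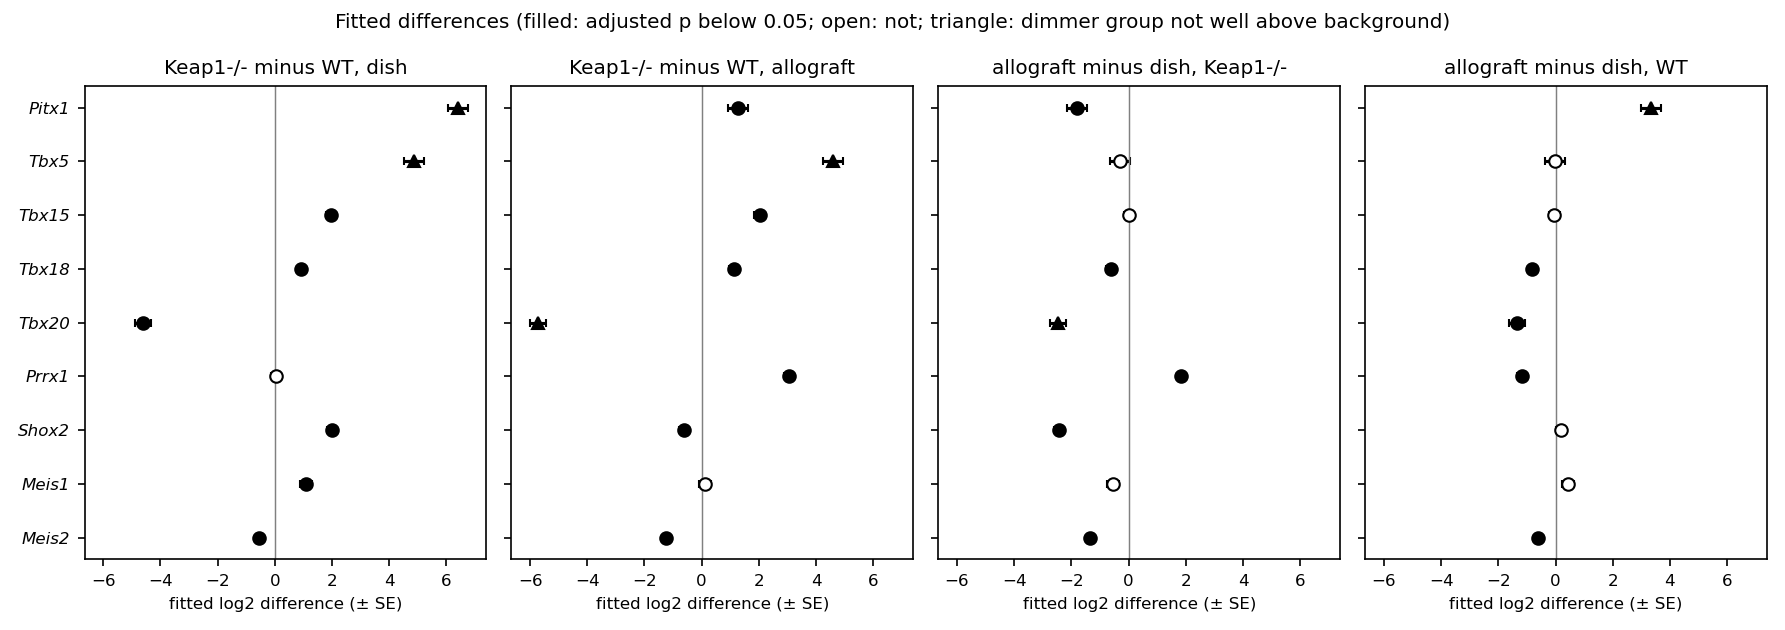
Fitted log2 differences with their standard errors for the 9 tested genes, in Keap1-/- minus WT and in allograft minus dish. Filled symbols passed an adjusted p of 0.05, and triangles mark a difference whose dimmer group was not well above background; between the dishes of the 2 lines Pitx1 and Tbx5 lie farthest to the right and Tbx20 farthest to the left, and between allografts Tbx5 and Prrx1 lie farthest to the right.

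The second question of the design is how the tumour setting compares with the dish within each line. In Keap1-/- cells, 6 of the 9 tested genes were called between allograft and dish, 1 higher (Prrx1) and 5 lower (Pitx1, Tbx18, Tbx20, Shox2 and Meis2) in allografts, with a median log2 difference of -0.63. In WT cells, 5 were called, 1 higher (Pitx1) and 4 lower (Tbx18, Tbx20, Prrx1 and Meis2), with a median of -0.04. Over all targets, 64.9% were called in Keap1-/- cells (35.8% higher, 29.1% lower) and 68.1% in WT cells (35.9% higher, 32.2% lower), with medians of 0.03 and -0.02, so a call here was the usual outcome for any target. Groups did not overlap for 8 of the 9 genes in Keap1-/- cells and for 6 in WT cells, against 81.8% and 83.3% of all targets. Of the 6 genes bright on all arrays, 4 were called in Keap1-/- cells and 3 in WT cells, against 65% and 69% of such targets.

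Among genes of the limb, Prrx1 was 3.55-fold higher in Keap1-/- allografts than in Keap1-/- dishes (1.83 ± 0.15, adjusted p = 0.000144) and 2.27-fold lower in WT allografts than in WT dishes (-1.18 ± 0.15, adjusted p = 0.000775). Its highest arrays were the Keap1-/- allografts and its lowest the WT allografts. Shox2 was 5.39-fold lower in Keap1-/- allografts than in Keap1-/- dishes (-2.43 ± 0.18, adjusted p = 9.25e-05), and in WT cells the difference was 0.18 ± 0.18 (adjusted p = 0.408). Pitx1 was 3.50-fold lower in Keap1-/- allografts than in Keap1-/- dishes (-1.81 ± 0.34, adjusted p = 0.00467) and at least 2.29-fold higher in WT allografts than in WT dishes (3.34 ± 0.34, adjusted p = 0.000329). The Pitx1 difference in WT cells was 0.36 with normexp background correction (adjusted p = 0.173) and 1.19 with dim values raised to the lowest signal above background on their array (adjusted p = 0.0219). Tbx5 was not called in Keap1-/- cells by its brighter probe (-0.31 ± 0.36, adjusted p = 0.49) and was called lower in allografts by its second probe (-0.56 ± 0.19, adjusted p = 0.0378). Both probes were below background in both WT groups.

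Of the genes of the trunk, Tbx15 was not called between allograft and dish in either line. Its brightest probe gave 0.02 ± 0.19 in Keap1-/- cells (adjusted p = 0.948) and -0.04 ± 0.19 in WT cells (adjusted p = 0.851). Its dimmest probe read lower in allografts, also without a call. That probe gave -0.45 ± 0.19 in Keap1-/- cells and -0.51 ± 0.19 in WT cells (adjusted p = 0.0851 and 0.0542 over all 30355 tested probes). The remaining probe gave -0.05 and 0.00. Tbx18 was 1.55-fold lower in Keap1-/- allografts than in their dishes (-0.63 ± 0.15, adjusted p = 0.0129) and 1.77-fold lower in WT allografts than in theirs (-0.82 ± 0.15, adjusted p = 0.00403). The call of Tbx18 in Keap1-/- cells ended without the second array of the Keap1-/- allograft (adjusted p = 0.06) or of the Keap1-/- dish (0.0679), and with unscaled signals both Tbx18 calls ended (0.0742 in Keap1-/- cells and 0.181 in WT cells). Tbx20, the factor of the heart, was at least 2.22-fold lower in Keap1-/- allografts than in their dishes (-2.45 ± 0.28, adjusted p = 0.00056) and 2.54-fold lower in WT allografts than in theirs (-1.34 ± 0.28, adjusted p = 0.00647). These values are from its brighter probe. The second Tbx20 probe was below background in both Keap1-/- groups (0.11 ± 0.15, adjusted p = 0.548). In WT allografts that probe was 3.26-fold lower than in WT dishes (-1.70 ± 0.15, adjusted p = 0.00015). Meis2 was 2.54-fold lower in Keap1-/- allografts (-1.34 ± 0.11, adjusted p = 0.000123) and 1.54-fold lower in WT allografts (-0.62 ± 0.11, adjusted p = 0.00267), each against its own dish. The WT call of Meis2 ended with quantile normalization (adjusted p = 0.134) and with unscaled signals (0.379).

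Meis1 depended on the probe. The brighter probe gave -0.53 ± 0.21 in Keap1-/- cells (adjusted p = 0.0661) and 0.45 ± 0.21 in WT cells (adjusted p = 0.102). The dimmer probe read -3.48 and -3.13 in Keap1-/- allografts, against -4.79 and -4.74 in Keap1-/- dishes, and -3.53 and -3.07 in WT allografts, against -6.05 and -5.58 in WT dishes. By that probe both allograft groups stood above both dish groups, 2.75-fold in Keap1-/- cells (1.46 ± 0.23, adjusted p = 0.00203) and 5.73-fold in WT cells (2.52 ± 0.23, adjusted p = 0.00019). With a block for the replicate number, which is also the slide, the brighter probe was called too, lower in Keap1-/- allografts (adjusted p = 0.0275) and higher in WT allografts (0.0446), each against its dish. It was also called in Keap1-/- cells without the second Keap1-/- allograft array (0.00546) and in WT cells without either Keap1-/- allograft array (0.0176). The 2 probes therefore differ on whether Meis1 is higher or lower in Keap1-/- allografts than in dishes, and no direction is given for the gene.

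**Figure D3:**
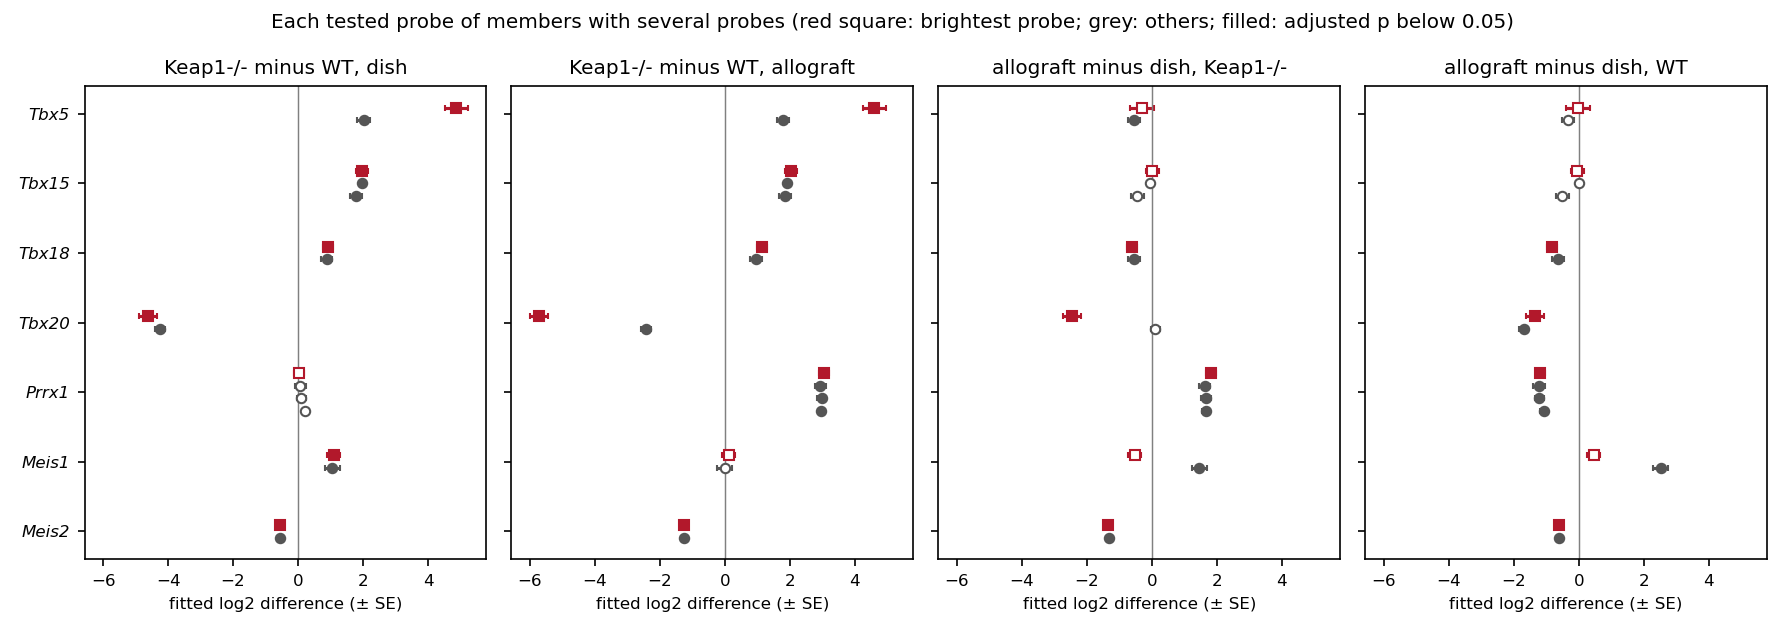
Fitted log2 differences with standard errors for every tested probe of the genes with more than 1 probe. The probes of Prrx1, Tbx18 and Meis2 lie close together, and those of Tbx15 do so between the lines. Between growth conditions the dimmest Tbx15 probe lies below the others in both lines. The probes of Meis1 in both lines, and those of Tbx20 in Keap1-/- cells, separate between growth conditions. Both probes of Tbx5 and the second probe of Tbx20 were not well above background in one of the lines. The size of their differences between the lines, and of their growth difference within that line, is therefore not measured. The same holds for differences of the brighter Tbx20 probe that involve Keap1-/- allografts.

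These growth differences rest on the 75th percentile as the scale of each array. With the array median in its place, the median of all targets moved to -0.84 in Keap1-/- cells and -1.04 in WT cells, and all 9 tested genes were called in each line. Tbx15 was then lower in Keap1-/- allografts than in dishes (-0.85), Shox2 and Meis1 were lower in WT allografts than in dishes (-0.84 and -0.57), and Shox2 in WT cells was also lower with quantile normalization (-0.89). With unscaled signals, which moved the median of all targets in WT cells to 0.36, both were called higher in WT allografts instead (Shox2 0.57, adjusted p = 0.04, and Meis1 0.84, adjusted p = 0.00949). Relative to the median of all targets in Keap1-/- cells on the same scale (-0.84), the Tbx15 value is near 0. In WT cells Shox2 and Meis1 lay above the median of all targets both with the array median and with unscaled signals. With quantile normalization Shox2 in WT cells lay below the median of all targets (-0.16).

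The interaction asks whether the difference between allograft and dish was itself different in the 2 lines. It was called for 5 of the 9 genes, 1 positive and 4 negative, with a median of -0.72, against 32.9% of all targets (15.8% positive and 17% negative) with a median of 0.04. Of the 6 genes bright on all arrays, 4 were called, against 36.3% of such targets. Prrx1 was positive, with 3.01 ± 0.21 (adjusted p = 0.00033). Pitx1 was negative, with -5.15 ± 0.49 (adjusted p = 0.000842), and remained so with dim values raised to the lowest signal above background (-3.00, adjusted p = 0.00479). Shox2 was negative with -2.61 ± 0.25 (adjusted p = 0.000905) and Meis2 with -0.72 ± 0.15 (adjusted p = 0.0152). Meis1 was at the threshold with -0.98 ± 0.30 (adjusted p = 0.0499).

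No interaction was called for Tbx5 (-0.28 ± 0.51, adjusted p = 0.733), Tbx15 (0.06 ± 0.27, 0.899), Tbx18 (0.19 ± 0.22, 0.561) or Tbx20 (-1.11 ± 0.40, 0.0839). The second probe of Tbx20 gave a called interaction of the opposite sign (1.81 ± 0.21, adjusted p = 0.00153 over all 30355 tested probes). That probe was not well above background on any Keap1-/- array, so no direction is given for the gene. The brighter Tbx20 probe was not well above background in Keap1-/- allografts, and its interaction was 0.20 with dim values raised (adjusted p = 0.608) and 0.69 with normexp (0.0362). It was called as negative with quantile normalization (0.00403), with unscaled signals (0.0153), with the replicate block (0.0406) and without the second Keap1-/- allograft array (0.0261). The Meis1 interaction ended without any one of 6 arrays, all but those of the Keap1-/- allograft (adjusted p 0.0845 to 0.134). It also ended with quantile normalization (0.106), the array median (0.0501), normexp (0.0742) and no filter (0.0788). The Meis2 interaction ended without either Keap1-/- dish array (0.0555 and 0.0605).

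**Figure D4:**
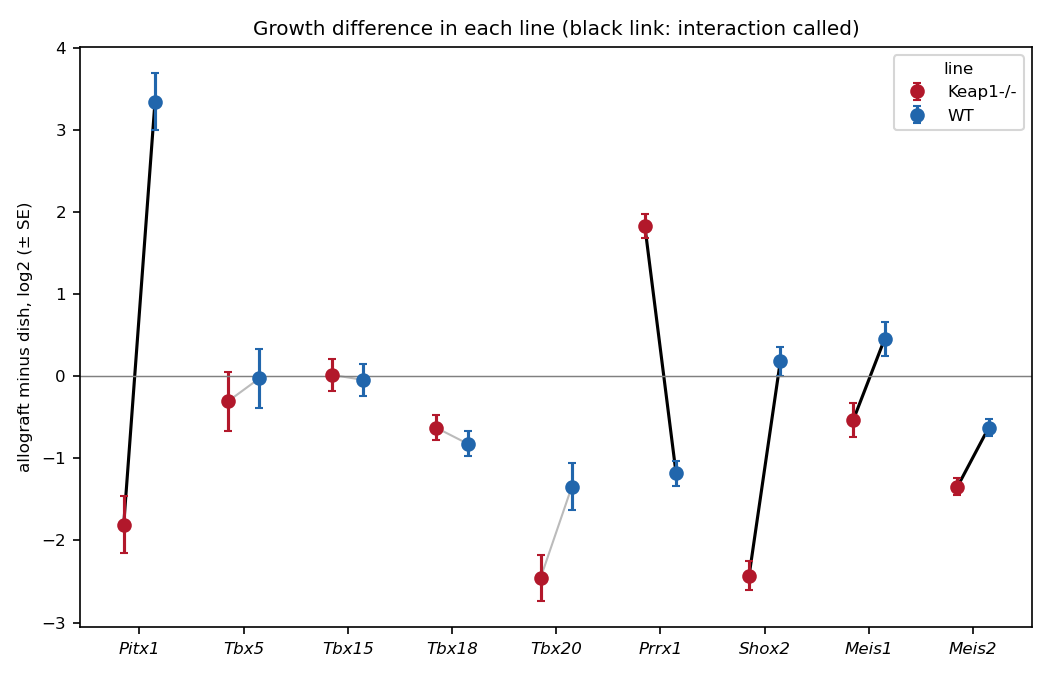
Allograft minus dish (log2, with standard error) in Keap1-/- cells and in WT cells for the 9 tested genes. A black link marks genes whose difference between the lines was called: Prrx1 lies above 0 in Keap1-/- cells and below 0 in WT cells, and Pitx1 the other way round.

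For each tested gene the targets with the most similar pattern were found. Likeness was the root mean square difference of centred log2 values among 14841 targets with a symbol, and it is a description of 4 groups rather than of 8 independent points. Nearest to Pitx1 was Kif1a (0.653), to Tbx5 Nwd2 (0.325) and to Tbx20 Cyp3a13 (0.380). Gstm3 (0.187), Bmper (0.189) and Gstm1 (0.191) were nearest to Tbx15. Gstm1 and Gstm3 encode glutathione transferases, and Bmper a secreted modulator of BMP signalling. Nearest to Tbx18 was Nadk2 (0.125), to Prrx1 Ezr (0.170), which links membrane to actin, to Shox2 Bhlhb9 (0.234), to Meis1 Tmc7 (0.144) and to Meis2 Pfkfb1 (0.0679). Among the members themselves, Tbx18 and Meis1 had the smallest difference (0.535), followed by Tbx15 and Tbx18 (0.605).

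For each list of related genes below, the shares over all targets were 11.4% higher and 9.78% lower in Keap1-/- dishes than in WT dishes. Between allografts they were 20.5% higher and 21.3% lower in Keap1-/- tumours. Other T-box genes were also on the arrays. Of 12 listed, 7 were tested, and between dishes 1 was higher in Keap1-/- cells and 1 lower, against 2 higher and 3 lower between allografts (medians 0.02 and -0.72). Eomes, a factor of early mesoderm and lymphocytes, was 4.51-fold higher in Keap1-/- dishes and 1.63-fold higher in Keap1-/- allografts than in WT (adjusted p = 0.00024 and 0.00789). Tbx1, a factor of the pharyngeal arches and the outflow tract of the heart, was 2.60-fold lower in Keap1-/- dishes and 3.70-fold lower in Keap1-/- allografts (adjusted p = 0.00175 and 0.000221).

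Among 9 TALE partners of MEIS, all tested, 1 was higher and 1 lower in Keap1-/- dishes, and 3 were higher and 4 lower in Keap1-/- allografts (medians 0.03 and -0.29). Pknox2, a TALE factor of the MEIS type, was at least 3.44-fold higher in Keap1-/- dishes and at least 2.73-fold lower in Keap1-/- allografts than in WT (adjusted p = 0.00165 and 0.000261). Meis3 was 2.23-fold lower in Keap1-/- allografts (adjusted p = 0.000722).

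Of 9 further paired-type homeobox genes of mesenchyme, 6 were tested, and 2 were higher and 1 lower in Keap1-/- dishes, while 1 was lower in Keap1-/- allografts (medians 0.31 and -0.02). Gsc, a factor of early organizer tissue and craniofacial mesenchyme, was 9.19-fold higher in Keap1-/- dishes than in WT dishes (adjusted p = 0.00179). Alx1, a factor of facial mesenchyme, was 2.15-fold lower in Keap1-/- dishes and 7.90-fold lower in Keap1-/- allografts (adjusted p = 0.0027 and 3.25e-05).

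Of 23 limb bud genes, 19 were tested. Keap1-/- allografts had 9 higher and 2 lower than WT allografts (median 0.98), against 20.5% and 21.3% of all targets. In dishes 3 were higher and 3 lower (median 0.31), against 11.4% and 9.78% of all targets. Fgf10, the growth factor of limb mesenchyme that starts limb outgrowth, read -1.46 and -1.30 in Keap1-/- allografts, against -4.66 and -4.73 in WT allografts, 9.95-fold higher (adjusted p = 1.37e-05). Twist2, a mesenchymal bHLH factor, was 9.93-fold higher and Aldh1a2, which makes retinoic acid, 9.23-fold higher in Keap1-/- allografts (adjusted p = 1.33e-05 and 0.000225). Msx2, a BMP target of limb and skull, was 3.21-fold lower in Keap1-/- allografts (adjusted p = 8.32e-05). En1, a factor of ventral limb ectoderm and trunk dermis, was at least 3.62-fold higher in Keap1-/- dishes (adjusted p = 0.00153), and its WT arrays were all below background. The interaction was positive for Twist2 (3.00 ± 0.14) and for Cyp26b1, which degrades retinoic acid (3.04 ± 0.27), with adjusted p of 0.000111 and 0.000645.

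Of 18 heart genes, 13 were tested, with 5 higher and 3 lower in Keap1-/- allografts and 2 higher and 2 lower in Keap1-/- dishes (medians -0.43 and -0.19). Nkx2-5, an early cardiac homeobox factor, was at least 8.73-fold lower in Keap1-/- allografts than in WT allografts (adjusted p = 0.000163). Isl1, a factor of cardiac progenitors and motor neurons, was at least 7.10-fold higher in Keap1-/- allografts and at least 4.35-fold higher in Keap1-/- dishes (adjusted p = 6.38e-05 and 0.000229). Nppb, a natriuretic peptide gene, was 7.24-fold higher in Keap1-/- allografts and 18.9-fold lower in Keap1-/- dishes than in WT (adjusted p = 7.29e-05 and 5.19e-05).

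Of 17 trunk and somite genes, 12 were tested. In Keap1-/- allografts 7 were higher and 3 lower (median 1.25), against 20.5% and 21.3% of all targets. In Keap1-/- dishes 7 were higher and 2 lower (median 0.99), against 11.4% and 9.78% of all targets. Pax3, a factor of dorsal neural tube and muscle precursors, was at least 6.35-fold higher in Keap1-/- allografts and 11.5-fold higher in Keap1-/- dishes (adjusted p = 2.81e-05 and 4.57e-05). Pax1, a factor of the sclerotome, was at least 4.93-fold higher in Keap1-/- allografts (adjusted p = 0.000215). Meox2, a somite homeobox factor also made by blood vessels, was at least 7.92-fold higher in Keap1-/- dishes (adjusted p = 6.75e-05), and Pax9 was 2.90-fold lower there (adjusted p = 0.000162). All companion lists are read against the same shares of all targets given above. En1 and Isl1, for example, passed the filter on dim signals only through Keap1-/- groups, in which they are high. The list counts are therefore not evidence about the lists.

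Marker signals of endothelium, macrophages and red cells differed with the growth condition, and the part of host cells in the results above was not tested. Summed levels (linear signal relative to the 75th percentile) of 10 endothelial markers were 12.0 to 13.2 in Keap1-/- allografts, 14.4 to 15.3 in WT allografts, 0.322 to 0.335 in Keap1-/- dishes and 0.421 to 0.447 in WT dishes. In both dish groups Pecam1, Tek, Tie1 and Emcn were not well above background. Macrophage markers, 9 tested, summed to 11.3 to 12.0 in Keap1-/- allografts, 65.4 to 72.4 in WT allografts and at most 0.168 in any dish. All 9 were lower in Keap1-/- allografts than in WT allografts, against 21.3% of all targets. The WT allografts thus had the highest summed macrophage signal.

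Skeletal muscle markers, 10 tested, differed between the 2 arrays of a group. They summed to 22.6 and 4.24 in Keap1-/- allografts, against 4.26 and 1.07 in WT allografts, and to at most 0.326 in dishes. The first Keap1-/- allograft array was also the one with keratinocyte markers, 5 tested, at 1.25, against 0.153 on the second and at most 0.135 elsewhere. Adipocyte markers, 6 tested, summed to 14.7 to 16.5 in Keap1-/- allografts, 5.95 to 13.8 in WT allografts, 1.11 to 1.13 in Keap1-/- dishes and 0.728 to 0.732 in WT dishes. Red cell markers, 3 tested, summed to 17.8 to 31.5 in Keap1-/- allografts, 13.2 to 20.7 in WT allografts and at most 0.111 in dishes.

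The label MEF was checked against fibroblast markers. All 10 were tested and well above background in every group except Lum in WT dishes. Their summed levels were 931 to 1000 in Keap1-/- allografts and 818 to 855 in WT allografts. In dishes they were 446 to 452 (Keap1-/-) and 345 to 378 (WT). The largest terms of the sums in both dish groups were Vim and S100a4, at log2 levels of 7.67 and 7.00 in WT dishes. There Col1a1 and Col1a2 read 3.71 and 3.76, Col3a1 0.11, Dcn -0.73, Thy1 -1.45, Pdgfrb -2.01 and Pdgfra -4.44. Of the 10, 7 were higher and 1 lower in Keap1-/- dishes than in WT dishes (median log2 difference 2.59). The shares of all targets there were 11.4% and 9.78%. Between allografts 3 of the markers were higher and 3 lower in Keap1-/- tumours (median -0.22), against 20.5% and 21.3% of all targets. These markers differed between the same dishes as the position factors, and their part in the results was not tested. Pericyte and smooth muscle markers, 9 tested, summed to 18.4 to 20.1 in Keap1-/- allografts, 22.4 to 24.9 in WT allografts, 15.1 to 17.5 in Keap1-/- dishes and 15.6 to 20.3 in WT dishes, with Kcnj8, Abcc9 and Des not well above background in dishes. Cardiomyocyte markers, 6 tested, summed to 0.299 to 0.466 in Keap1-/- allografts, 0.661 to 0.874 in WT allografts, 0.399 to 0.417 in Keap1-/- dishes and 0.584 to 0.606 in WT dishes. Of these 6, Myh6 was not well above background in Keap1-/- dishes or in either WT group, and the other 5 were well above background in every group.

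**Figure D5:**
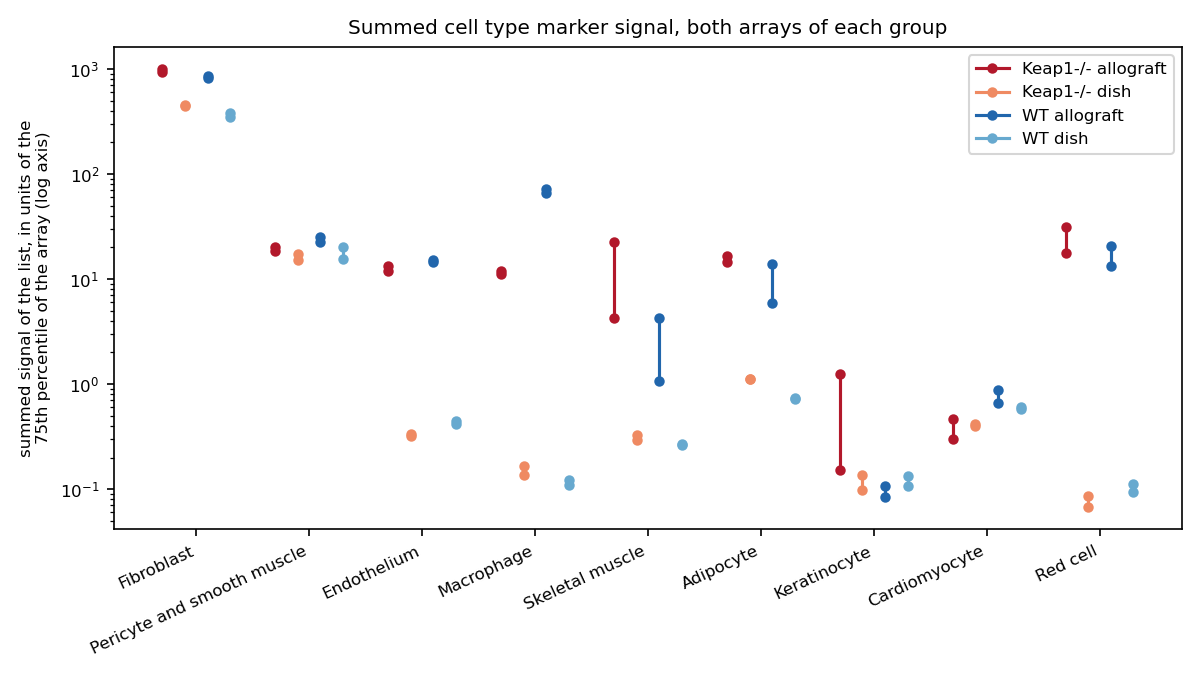
Summed linear signal, relative to the 75th percentile of each array, of each marker list on both arrays of each group (log axis). Endothelial, macrophage and red cell markers lie far higher in allografts than in dishes. Sums of different lists come from different probes and cannot be set against each other.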

How the data were processed

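The deposited scanner files hold spot intensities of 1-colour (Cy3) Agilent arrays, which Feature Extraction 10.7.3.1 had background-subtracted and spatially detrended, per the file headers. The series' value table held the same intensities to within 0.496%. The headers name build mm9. Spots marked as outliers and control spots were left out, spots of a probe were averaged, and log2 signals were scaled with R 4.3.3 on the 75th percentile of each array. Probe accessions were named through a RefSeq table of GRCm38.p6, used for names only, which gave 26690 of 41174 probes a symbol.

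Testing was limited to the 30355 probes that the scanner software called well above background on the 2 arrays of some group, and a gene was represented by its brightest such probe. One limma 3.58.1 fit of 4 group means over the 8 arrays gave all differences, with p-values adjusted over all 22919 targets. Normexp background correction, one of the alternatives, used median signals (offset 50) because mean signals were not given in the files. Precision is limited by having 2 arrays a group.

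The members, the companion and marker lists and the tests were chosen with earlier results of these data known. All 10 members are named, and from each companion list the called genes of largest difference, with likeness as defined above; some genes that this rule names are not reported here. Deviations of same-numbered arrays from their group means correlated at 0.247 to 0.429 in all 6 pairs of groups, so the numbers, which are also the slides, pair the arrays. The reported fit did not use this pairing, which entered only through the replicate block. The alternatives tried were other scalings, filters, probe rules, the replicate block and leaving out each array.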

Additional observations from a re-analysis of the deposited data

Results flagged for a closer look

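The difference between allograft and dish was tested against itself between the 2 lines, and 5 of the 9 tested genes passed. The Keap1-/- difference minus the WT difference was -5.15 (log2) for Pitx1, 3.01 for Prrx1, -2.61 for Shox2, -0.98 for Meis1 and -0.72 for Meis2 (limma, adjusted p = 0.000842, 0.00033, 0.000905, 0.0499 and 0.0152 in that order). Pitx1 and Prrx1 moved in opposite directions in the 2 lines, and Pitx1 was not well above background in WT dishes. The rise of Pitx1 in WT cells was not called with normexp background correction (0.36, adjusted p = 0.173). With dim values raised to the lowest signal above background, the Pitx1 interaction was -3.00. Skeletal muscle, keratinocyte and macrophage markers also differed between the allografts, and their part in these values was not tested.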

How the results depend on the processing

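Of 840 values of single members under alternatives, 772 kept their side of the threshold, and their direction where they were called. Uncalled values among them could change sign, as for Prrx1 between dishes (-0.12 to 0.19 with single arrays left out). Of the rest, 45 lost the call, 18 gained one and 5 changed sign with a call. Those 5 were Shox2 in WT cells between allograft and dish with quantile normalization (-0.89) and with the array median (-0.84), Meis1 in WT cells and Tbx15 in Keap1-/- cells with the array median (-0.57 and -0.85), and the Tbx20 interaction with normexp (0.69). The cause was not tested, except that the array median shifts the median of all targets in the same direction. With that median the called members in WT cells between growth conditions were 9, against 5 as reported. Restricted to probes well above background on all 8 arrays, which leaves 6 members, the counts were 5 in dishes, 5 in allografts and 3 between growth conditions in WT cells.

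Leaving out one array at a time gave 5 to 8 called members between the lines in dishes and 6 to 7 in allografts. Between growth conditions it gave 5 to 6 in Keap1-/- cells and 5 to 6 in WT cells, and for the interaction 3 to 6. The dish count was 5 without the second Keap1-/- dish array or the first WT dish array, and the interaction count was 3 without either Keap1-/- dish array. Where an array is left out, the lone array of its group is assumed to vary like the others. With the replicate block, which is also the slide block, the counts were 8, 8, 7, 6 and 6 in the same order; it gained the 3 calls named above (Meis1 in both lines and the Tbx20 interaction) and ended none.

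Scaling also moved the share of all called targets that were higher. It was 53.7% in dishes as reported, 37.3% with the array median and 76.4% with unscaled signals, and 49% in allografts, against 30.5% unscaled. Between growth conditions it was 55.2% in Keap1-/- cells and 52.7% in WT cells, against 27.3% and 25.9% with the median and 62.2% and 78.5% unscaled. For the interaction it was 48.2%, 57.4% and 23.3%. Of 1425 counts over the companion and marker lists, 1285 stayed within 1.5 times the reported count and 140 did not. Signal over background limits Tbx4 in all groups, Tbx5 in WT cells, Tbx20 in Keap1-/- allografts and Pitx1 in WT dishes.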

Other observations

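The companion lists also differed between allograft and dish, where 64.9% of all targets were called in Keap1-/- cells and 68.1% in WT cells. Among the other T-box genes, 3 were higher and 3 lower in Keap1-/- allografts and 3 higher and 1 lower in WT allografts than in their dishes, of 7 tested. Tbx6, a factor of presomitic mesoderm, was 12.5-fold higher in Keap1-/- allografts and 14.3-fold higher in WT allografts (limma, adjusted p = 2.87e-05 and 2.08e-05), and Tbx1 was 6.72-fold lower in Keap1-/- allografts and 4.72-fold lower in WT allografts (2.71e-05 and 5.09e-05). Of the 19 limb bud genes tested, 9 were higher and 3 lower in Keap1-/- allografts, and 5 higher and 8 lower in WT allografts. Msx2 was 30.7-fold lower in Keap1-/- allografts and 13.5-fold lower in WT allografts than in dishes (adjusted p = 2.43e-06 and 2.24e-06). Cyp26b1 was 19.0-fold higher in Keap1-/- allografts (adjusted p = 1.55e-05).

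Of the 13 heart genes tested, 5 were higher and 4 lower in Keap1-/- allografts, and 2 higher and 4 lower in WT allografts. Nkx2-5 was at least 40.1-fold lower in Keap1-/- allografts and 3.90-fold lower in WT allografts (adjusted p = 1.44e-05 and 0.000761). Mef2c, a factor of muscle, endothelium and myeloid cells, was 23.9-fold higher in Keap1-/- allografts and at least 63.7-fold higher in WT allografts (adjusted p = 0.000295 and 4.11e-05). Of the 12 trunk and somite genes tested, 6 were higher and 4 lower in Keap1-/- allografts, and 3 higher and 6 lower in WT allografts. Meox1 was 6.90-fold higher in Keap1-/- allografts and at least 49.9-fold higher in WT allografts (adjusted p = 2.05e-05 and 9.33e-07), and Foxc2, a factor of paraxial mesoderm and vessels, was 11.3-fold lower in Keap1-/- allografts (1.83e-05). Of 9 TALE partners, 1 was higher and 5 lower in Keap1-/- allografts, and 1 higher and 4 lower in WT allografts. Of 6 paired-type genes, none was higher and 3 were lower in Keap1-/- allografts, and 1 was higher and 3 lower in WT allografts. Gsc was called lower in both allograft groups than in their dishes (adjusted p = 0.000146 in Keap1-/- cells and 0.0207 in WT cells), with 1 of the 2 arrays of each allograft group well above background, so no fold is given. The endothelial, macrophage and muscle markers given above differed between the same arrays, and their part in these values was not tested.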
